A study of Mus musculus with 11 samples.

Results

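The mitotic spindle, kinetochore and cytokinesis genes are 56 genes, of the 21684 in the deposited count table, whose proteins carry a cell from entry into mitosis to the separation of the daughter cells. They were chosen by name, as the rows of the table whose symbol is on a written list. All 56 were in the table and all 56 passed the filter on low counts, with a count of 89 or more in every library. They were followed in NIH/3T3, a fibroblast line established from mouse embryos, kept for 24 h in serum-free medium. The WT group had 2 libraries, and the Xap5 KO, Nono KO and Sox5 KO groups had 3 libraries each. All 4 groups had the same 24 h without serum, so the data hold no growing cells for comparison. The labels name no clone and no separate cultures, so each knockout is taken as 1 line, and p-values measure only the spread between these libraries, which may be technical. A difference between a knockout and WT cannot be told apart from a difference between the cell lines.

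These genes work in a fixed order. Cyclin B and its kinase CDK1 start mitosis, kinetochore proteins tie chromosomes to spindle microtubules, the spindle checkpoint holds the cell until every chromosome is attached, and the anaphase-promoting complex with CDC20 then ends the hold so that the sister chromatids part and the cell is cleaved. Their transcripts are made mostly in G2 and mitosis. In resting cells the DREAM complex keeps them repressed, and in G2 its MuvB core, joined by B-MYB (gene Mybl2) and FOXM1, takes part in activating them. The DNA letters known for this control are the cell cycle genes homology region (CHR) near the start of transcription and the CCAAT boxes bound by NF-Y upstream of it. Fibroblasts without serum leave the cycle, so these transcripts are low in resting cultures. XAP5, whose mouse gene is listed as Fam50a, is a nuclear protein, NONO is an RNA-binding protein of nuclear paraspeckles, and SOX5 is a transcription factor of the SOX family.

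Promoters of 6 of the genes are printed as examples of CHR and CCAAT letters, which the choice of the genes did not use. All 6 hold both kinds in the bases printed. Of the 47 windows found for these genes, 16 do so (34.0%, against 6.02% of all promoter windows). Each line gives the 250 bases before the annotated start, 5′ to 3′ on the strand of the gene, from RefSeq with build GRCm38.p6, and capitals mark TTTGAA or TTCGAA (CHR letters) and CCAAT, read on both strands, so that TTCAAA and ATTGG are marked too. Letters of the motifs may overlap, as CCAAT and ATTGG do in the Ube2c line.
Cdk1: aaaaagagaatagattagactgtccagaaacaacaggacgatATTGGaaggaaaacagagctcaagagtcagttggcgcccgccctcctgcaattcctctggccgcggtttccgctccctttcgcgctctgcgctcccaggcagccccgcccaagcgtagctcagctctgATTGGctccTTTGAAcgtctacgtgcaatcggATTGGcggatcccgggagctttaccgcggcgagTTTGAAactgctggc
Ccnb2: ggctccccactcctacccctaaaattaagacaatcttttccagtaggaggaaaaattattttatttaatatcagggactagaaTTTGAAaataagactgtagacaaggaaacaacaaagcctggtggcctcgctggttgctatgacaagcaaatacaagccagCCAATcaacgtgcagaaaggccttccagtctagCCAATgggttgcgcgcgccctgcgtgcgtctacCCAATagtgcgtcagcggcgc
Top2a: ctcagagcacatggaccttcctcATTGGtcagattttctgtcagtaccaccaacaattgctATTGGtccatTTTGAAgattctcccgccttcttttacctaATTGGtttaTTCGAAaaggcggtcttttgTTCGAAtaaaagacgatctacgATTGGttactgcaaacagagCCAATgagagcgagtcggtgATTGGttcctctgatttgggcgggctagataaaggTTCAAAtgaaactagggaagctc
Mki67: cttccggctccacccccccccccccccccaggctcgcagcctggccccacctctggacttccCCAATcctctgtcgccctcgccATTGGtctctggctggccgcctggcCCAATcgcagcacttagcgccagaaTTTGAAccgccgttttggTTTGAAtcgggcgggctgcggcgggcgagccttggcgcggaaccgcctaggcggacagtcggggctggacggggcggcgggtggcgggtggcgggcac
Cdc20: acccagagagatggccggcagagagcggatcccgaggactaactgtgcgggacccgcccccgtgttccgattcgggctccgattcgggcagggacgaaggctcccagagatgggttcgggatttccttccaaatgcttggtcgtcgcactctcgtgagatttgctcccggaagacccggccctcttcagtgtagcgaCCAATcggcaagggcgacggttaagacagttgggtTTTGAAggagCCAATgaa
Ube2c: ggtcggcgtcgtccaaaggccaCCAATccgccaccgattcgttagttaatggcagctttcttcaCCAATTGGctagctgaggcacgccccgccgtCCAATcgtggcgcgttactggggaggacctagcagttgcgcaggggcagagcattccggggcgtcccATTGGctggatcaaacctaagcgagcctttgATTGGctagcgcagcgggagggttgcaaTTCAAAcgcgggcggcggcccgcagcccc
The printed windows are chr10:69352913-69353162 (minus strand) for Cdk1, chr9:70421555-70421804 (minus strand) for Ccnb2, chr11:99024190-99024439 (minus strand) for Top2a, chr7:135716380-135716629 (minus strand) for Mki67, chr4:118437344-118437593 (minus strand) for Cdc20 and chr2:164769679-164769928 (plus strand) for Ube2c. In Cdc20 the CHR letters begin at −18 and the CCAAT letters at −53 and −8, counted from the start site. In Cdk1 CHR letters begin at −71 and −15 and CCAAT letters, as ATTGG, at −208, −80 and −48. Top2a and Ube2c each hold 6 CCAAT matches, and Top2a holds 4 CHR matches. In Ccnb2 the printed CHR letters begin at −167, and another match, at 5 past the start, lies outside the printed bases.

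RefSeq promoter windows of 300 bases, from 250 before to 50 after the start, were found for 45 of the 56 genes, in 47 windows. CHR letters stood in 36 of the 47 windows, which is 76.6% (95% Clopper-Pearson interval 62.0 to 87.7%), against 19.2% of the 32851 promoter windows of all genes. CCAAT letters stood in 33 of 47, which is 70.2% (interval 55.1 to 82.7%), against 37.4% of all windows. Both kinds stood in 31 of 47, or 66.0%, against 7.52% of all windows. In the 250 bases before the start alone, CHR letters were in 18 of 47 windows (38.3%, against 17.2% of all). For the other 18 windows the letters thus lay in or reached into the 50 bases after the annotated start. In 31 of the 47 windows the first bases after this start were found in a GENCODE transcript of the gene, so the start is less certain for the rest. The windows of 1 family of genes are not independent samples, a match of letters is not a bound site, and no match says only that these letters are not in this window.

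The 11 libraries held 30205878 to 43498383 counts, and a member had between 89 and 9212 counts in a library. Levels are in CPM, the usual depth-scaled count, on library totals scaled with TMM factors, and intervals from counting cover counting error only. The label check came from the targeted genes. Fam50a stood at 64.8 and 62.9 CPM in WT and 7.49, 7.91 and 7.86 in Xap5 KO, Nono at 357 and 351 in WT and 33.95, 34.00 and 27.6 in Nono KO, and Sox5 at 49.7 and 45.9 in WT and 12.6, 13.9 and 13.9 in Sox5 KO. Sox5 was low in the other knockouts too, at 14.2, 15.02 and 11.9 CPM in Xap5 KO and 7.01, 7.57 and 8.75 in Nono KO. Its level did not pass a test of the difference between Xap5 KO and Sox5 KO, at 0.03 (SE 0.12, adjusted p = 0.852), and was lower in Nono KO than in Sox5 KO, at −0.79 (SE 0.12, adjusted p = 5.62e-06), so Sox5 does not tell the Sox5 KO libraries from those of the other knockouts. All 10 fibroblast markers were present in every group, with a summed level of 24609 to 24749.9 CPM in WT, 18855 to 20189.6 in Xap5 KO, 49286 to 54006 in Nono KO and 20919 to 21322 in Sox5 KO. The 6 epithelial markers were each under 1 CPM in all groups. Of 6 leukocyte markers, summed at 1.91 to 2.28 CPM in WT, 3.01 to 3.38 in Xap5 KO, 7.25 to 10.9 in Nono KO and 1.88 to 2.68 in Sox5 KO, 4 were at 0 in WT, 3 in Xap5 KO, 2 in Nono KO, and 5 were at 0 in Sox5 KO. Cd68 was over 1 CPM in every group. Ptprc was over 1 CPM in Nono KO alone, at 6.00, 7.31 and 6.68 CPM there and 0.12 and 0.09 in WT. Of 6 endothelial markers, summed at 13.5 to 15.7 CPM in WT, 33.5 to 35.7 in Xap5 KO, 2.96 to 4.81 in Nono KO and 7.92 to 10.8 in Sox5 KO, Vwf was over 1 CPM in every group and Tek was over 1 CPM in Nono KO. Mitochondrial genes took 6.20 to 6.28% of the counts in WT, 7.89 to 10.3% in Xap5 KO, 7.10 to 7.98% in Nono KO and 6.06 to 6.92% in Sox5 KO. The part of these differences in the results below was not tested.

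More of the 56 genes rose than fell in each knockout, and the count of rises was highest in Xap5 KO. Against WT, 48 of the 56 genes rose in Xap5 KO and 1, Cdk1, fell. The share of all 13332 tested genes called higher was 23.2%, and the share called lower was 22.3%. The median log2 fold change of the 56 was 0.90, where 1 is a 2-fold rise, against 0.00 over all tested genes. In Nono KO 32 rose and 0 fell, where 23.5% of all genes were called higher and 25.1% lower, and the median was 0.47. At an unadjusted p under 0.05, 2 of the 56 were lower in Nono KO, Incenp and Pttg1, and DESeq2 called 0 lower. In Sox5 KO 28 rose and 6 fell, where 30.6% of all genes were called higher and 30.3% lower, and the median was 0.38. A gene counts as called, and as risen or fallen, at a Benjamini-Hochberg adjusted p under 0.05 over all tested genes in edgeR's quasi-likelihood test, and every adjusted p below comes from that test. The counts in Nono KO and Sox5 KO lean on WT replicate 2. Without it, 21 genes rose in Nono KO (37.5% of the 56, against 18.5% of all tested genes) and 13 in Sox5 KO (23.2%, against 24.6%), so in Sox5 KO the share was then no higher than that of all genes.

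A rise of at least 2-fold was called for 24 of the 56 genes in Xap5 KO, or 42.9% (5.67% of all tested genes). In Nono KO it was called for 7, or 12.5% (6.5% of all). In Sox5 KO it was called for 5, or 8.93%, which is near the 8.3% of all tested genes. A call with a 2-fold fall was made for 0 of the 56 in each knockout, against 4.61% of all tested genes in the comparison of Xap5 KO, 4.68% in that of Nono KO and 8.87% in that of Sox5 KO. All Xap5 KO libraries lay above both WT libraries for 50 of the 56 genes, against 32.3% of all tested genes. This held for 28 genes in Nono KO (31.3% of all) and for 34 in Sox5 KO (37.8% of all), while 8 genes had all Sox5 KO libraries below both WT libraries (38% of all). Scaling by library totals alone moved the median of all tested genes to −0.18 in Nono KO and −0.12 in Sox5 KO. In Nono KO it gave 25 genes higher (44.6%, against 16.2% of all tested genes) and 4 lower (37.4% of all). In Sox5 KO it gave 18 higher (32.1%, against 25.1% of all tested genes) and 6 lower (36% of all). The 3 comparisons share the 2 WT libraries, so they are not independent of each other. In RNA from whole cultures, more cells in G2 and mitosis cannot be told apart from more mitotic RNA per cell.

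**Figure D1:**
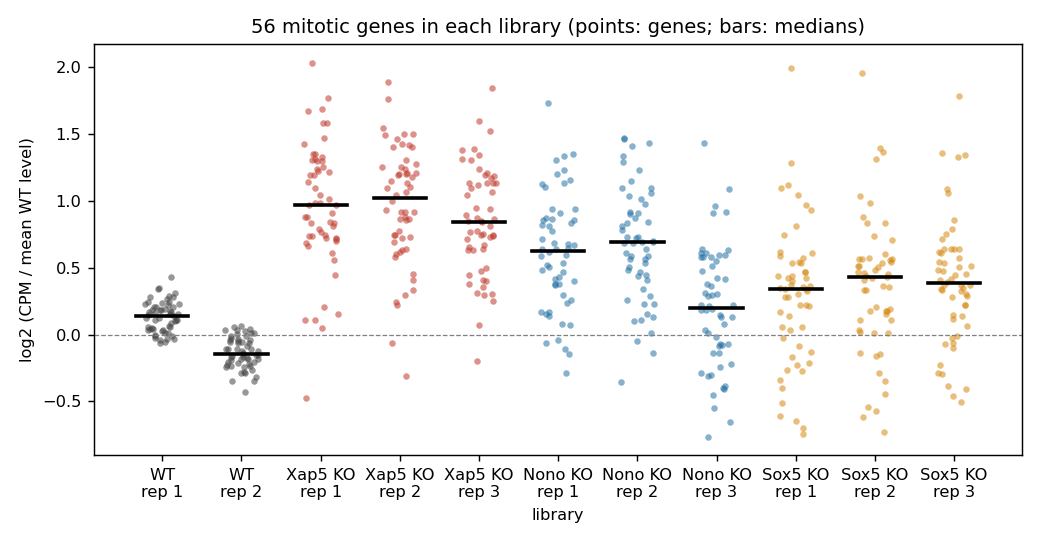
Level of each of the 56 genes in each library as the log2 ratio to its mean WT level (points) with the library's median (bars). The medians are 0.97, 1.02 and 0.84 in Xap5 KO, 0.63, 0.69 and 0.20 in Nono KO, 0.34, 0.43 and 0.39 in Sox5 KO, and 0.14 and −0.14 in WT.

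Per kilobase of the longest annotated transcript, the 56 genes spanned a wide range of WT levels. Smc4, a condensin subunit, and Top2a, the topoisomerase that untangles chromosomes, were highest at 17.9 and 17.8 CPM per kb. The next were Racgap1 at 10.2, Anln at 10.1 and Incenp at 10.0 CPM per kb. The lowest were Kif18a at 1.04, Cdc25c at 1.07 and Spc24 at 1.29 CPM per kb.

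The counts by role below are to be read beside the shares of all tested genes. These were 23.2% higher and 22.3% lower in Xap5 KO, 23.5% and 25.1% in Nono KO, and 30.6% and 30.3% in Sox5 KO. Each role has 4 to 11 genes, and a count near these shares is not read as a trait of the role. Among the genes of mitotic entry, both B cyclins rose in all 3 knockouts, whereas their kinase fell in Xap5 KO and rose in Sox5 KO. Ccnb1, cyclin B1, stood at 11.7 and 11.01 CPM in WT, 28.2, 29.99 and 28.3 in Xap5 KO, 26.6, 23.3 and 17.7 in Nono KO and 17.1, 20.3 and 19.6 in Sox5 KO. Every knockout library lay above both WT libraries, with log2 fold changes of 1.34 (SE 0.14, adjusted p = 1.01e-07), 0.99 (SE 0.14, adjusted p = 4.97e-06) and 0.74 (SE 0.14, adjusted p = 0.000103) in that order. Ccnb2, cyclin B2, stood at 3.97 and 2.68 CPM in WT, 6.72, 7.23 and 5.41 in Xap5 KO, 6.24, 6.41 and 4.53 in Nono KO and 13.02, 12.6 and 11.2 in Sox5 KO. It had the highest rise of the 56 in Sox5 KO, at 1.89 (SE 0.22, adjusted p = 2.12e-07), and rose by 0.96 (SE 0.22, adjusted p = 0.00105) in Xap5 KO and 0.79 (SE 0.22, adjusted p = 0.00463) in Nono KO. The Ccnb2 call in Nono KO ended without WT replicate 2 (0.54).

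Cdk1, the catalytic partner of both B cyclins, went the other way in Xap5 KO. Its levels were 34.04 and 26.1 CPM in WT, 21.4, 24.1 and 25.97 in Xap5 KO, 33.1, 32.2 and 25.2 in Nono KO and 39.95, 44.4 and 43.1 in Sox5 KO. All Xap5 KO libraries lay below both WT libraries and all Sox5 KO libraries above them, while Nono KO overlapped with WT. The log2 fold change was −0.33 (SE 0.12, adjusted p = 0.0344) in Xap5 KO, 0.01 (SE 0.12, adjusted p = 0.978) in Nono KO and 0.50 (SE 0.13, adjusted p = 0.0019) in Sox5 KO. The call in Xap5 KO ended without WT replicate 1, without Xap5 KO replicate 1 and without Xap5 KO replicate 2, with the value running from −0.52 to −0.14 as each of the 11 libraries was left out, and the call in Sox5 KO ended without WT replicate 2 (0.32). In Xap5 KO it also ended with the replicate number as a block, at −0.32, and with the offset for length and GC content that is described below, at −0.29 (adjusted p = 0.0542). Across the 11 libraries, the log2 level of Cdk1 had a Pearson correlation of −0.36 with the median of the other members, the lowest of the 56, and that of Ccna2 the highest at 0.99. The points are 11 libraries of 4 groups, and the value is a description.

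Plk1, the polo-like kinase that acts from entry to cytokinesis, stood at 8.68 and 6.29 CPM in WT, 22.2, 17.1 and 18.2 in Xap5 KO, 13.3, 13.8 and 11.2 in Nono KO and 15.8, 19.1 and 15.8 in Sox5 KO. It rose in all 3, by 1.36 (SE 0.17, adjusted p = 8.3e-07), 0.77 (SE 0.16, adjusted p = 0.0005) and 1.17 (SE 0.17, adjusted p = 2.81e-06). Ccna2, cyclin A2, rose from a WT mean of 25.6 CPM to 64.2 ± 5.65 in Xap5 KO (SD, n = 3) and 43.9 ± 12.5 in Nono KO (SD, n = 3), and was not called in Sox5 KO at 0.55 (SE 0.24, adjusted p = 0.0744). Its call in Nono KO ended without WT replicate 2 (0.57) and without Nono KO replicate 1 (0.77). The phosphatases that activate CDK1 were not called in any knockout. Cdc25b stood at 30.8 and 28.4 CPM in WT, 30.7, 34.5 and 36.8 in Xap5 KO, 28.4, 29.9 and 22.6 in Nono KO and 30.8, 30.4 and 29.1 in Sox5 KO, and every knockout overlapped with WT. Cdc25c was low throughout, with group means of 2.83 to 3.91 CPM.

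**Figure D2:**
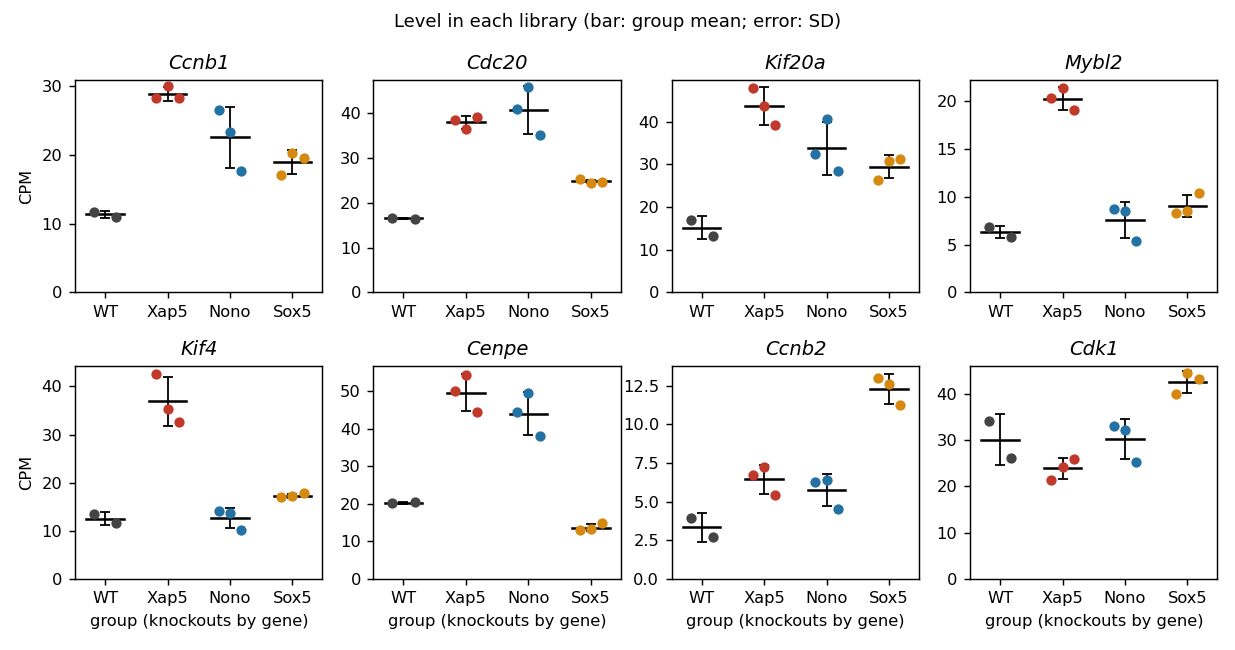
Level in CPM of 8 genes in each library (points), with the group mean (bar) and SD (error bars, n = 2 for WT and 3 for each knockout). Ccnb1, Cdc20 and Kif20a lie above WT in every knockout library, Cdk1 lies below WT in Xap5 KO, and Cenpe lies below WT in Sox5 KO.

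Of the 11 kinetochore and spindle checkpoint genes, 10 rose in Xap5 KO and 7 in Nono KO, and in Sox5 KO 5 rose and 2 fell. Spc24, a subunit of the NDC80 complex that grips the microtubule, stood at 2.21 and 2.18 CPM in WT, 8.98, 8.13 and 7.88 in Xap5 KO, 7.30, 5.84 and 5.91 in Nono KO and 4.30, 4.34 and 5.52 in Sox5 KO. No knockout library reached down to WT, and its rises of 1.92 (SE 0.21, adjusted p = 2.46e-07) in Xap5 KO and 1.53 (SE 0.21, adjusted p = 3.93e-06) in Nono KO were the highest of the 56 genes there. In Sox5 KO it rose by 1.10 (SE 0.21, adjusted p = 0.000127). Ndc80, which names that complex, stood at 12.5 and 9.62 CPM in WT, 16.7, 16.8 and 18.2 in Xap5 KO, 19.8, 20.7 and 16.96 in Nono KO and 13.9, 15.3 and 13.7 in Sox5 KO, and it rose in all 3, by 0.64 (SE 0.14, adjusted p = 0.000582), 0.80 (SE 0.14, adjusted p = 5.45e-05) and 0.37 (SE 0.14, adjusted p = 0.023). Of the complex's other subunits, Spc25 was called higher in all 3 knockouts (0.97, 0.59 and 0.55) and Nuf2 in Xap5 KO (0.90). The Spc25 calls were weak in Nono KO, where 7 of the 11 fits that left out 1 library lost the call (values of 0.23 to 1.09 over the 11), and in Sox5 KO, where 6 did (0.18 to 1.04). Leaving out WT replicate 2 was among them in both. The offset for length and GC content also ended them, at 0.39 (adjusted p = 0.154) and 0.24 (adjusted p = 0.361). The Ndc80 call in Sox5 KO ended without WT replicate 2 (0.19) and without Sox5 KO replicate 2 (0.32).

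Cenpe, the kinesin motor of the kinetochore, lay above WT in 2 of the knockouts and below it in the third. Its levels were 20.1 and 20.4 CPM in WT, 50.2, 54.3 and 44.4 in Xap5 KO, 44.4, 49.5 and 38.00 in Nono KO and 12.9, 13.2 and 14.8 in Sox5 KO. Xap5 KO and Nono KO lay wholly above WT, at 1.29 (SE 0.11, adjusted p = 7.82e-09) and 1.12 (SE 0.11, adjusted p = 4.87e-08), and Sox5 KO wholly below, at −0.57 (SE 0.11, adjusted p = 0.000178). Cenpf, a large protein of the outer kinetochore, lay on the same sides of WT. It stood at 34.6 and 23.99 CPM in WT, 68.8, 66.7 and 63.1 in Xap5 KO, 46.2, 50.6 and 37.1 in Nono KO and 17.2, 19.3 and 20.4 in Sox5 KO. Its log2 fold changes were 1.18 (SE 0.15, adjusted p = 1.31e-05), 0.61 (SE 0.15, adjusted p = 0.00308) and −0.63 (SE 0.15, adjusted p = 0.00189). With the offset for length and GC content neither was called in Sox5 KO, with Cenpe at −0.01 (adjusted p = 0.964) and Cenpf at 0.11 (adjusted p = 0.554), so the fall below WT in Sox5 KO was not found with it.

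All 4 checkpoint genes rose in Xap5 KO. Bub1, a checkpoint kinase at the kinetochore, stood at 13.4 and 9.12 CPM in WT, 22.4, 29.3 and 23.2 in Xap5 KO, 14.95, 16.7 and 12.8 in Nono KO and 13.9, 16.3 and 17.2 in Sox5 KO. It rose by 1.15 (SE 0.17, adjusted p = 1.39e-05) in Xap5 KO and by 0.49 (SE 0.17, adjusted p = 0.0172) in Sox5 KO, and was not called in Nono KO at 0.40 (SE 0.17, adjusted p = 0.058), where replicate 3 lay inside the WT range. Mad2l1, the checkpoint protein that binds CDC20, stood at 22.4 and 17.8 CPM in WT, 35.02, 36.3 and 33.5 in Xap5 KO, 26.01, 27.9 and 20.1 in Nono KO and 22.05, 21.5 and 23.3 in Sox5 KO, and was called in Xap5 KO at 0.80 (SE 0.13, adjusted p = 2.48e-05). Bub1b, another checkpoint kinase family member, rose in all 3 (0.69, 0.56 and 0.40), and Ttk, the MPS1 kinase, rose in Xap5 KO (1.01) and Nono KO (0.88). Cenpa, the histone H3 variant that marks the centromere, was called in none. It stood at 18.3 and 14.8 CPM in WT, 17.7, 20.7 and 21.8 in Xap5 KO, 15.9, 14.98 and 12.4 in Nono KO and 16.2, 16.5 and 17.2 in Sox5 KO, overlapping with WT in each case. In Sox5 KO the Bub1 call ended without WT replicate 2 (0.23) and without Sox5 KO replicate 3 (0.42), and the Bub1b call without WT replicate 2 (0.25) and without Sox5 KO replicate 2 (0.31). The Ttk call in Nono KO ended without WT replicate 2 (0.58), and with the offset for length and GC content Mad2l1 was called higher in Sox5 KO, at 0.69 (adjusted p = 9.29e-05).

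The chromosomal passenger complex corrects faulty attachments and later works in cytokinesis. All 4 of its genes rose in Xap5 KO. Aurkb, its kinase, stood at 11.3 and 8.10 CPM in WT, 21.9, 22.8 and 18.4 in Xap5 KO, 13.9, 13.03 and 11.2 in Nono KO and 13.9, 17.6 and 14.6 in Sox5 KO. It rose by 1.12 (SE 0.16, adjusted p = 7.36e-06), 0.39 (SE 0.16, adjusted p = 0.0489) and 0.67 (SE 0.16, adjusted p = 0.00116), and in Nono KO replicate 3 lay just inside the WT range. Birc5, survivin, stood at 8.63 and 6.29 CPM in WT, 20.5, 19.7 and 16.2 in Xap5 KO, 13.9, 13.5 and 9.56 in Nono KO and 15.99, 18.3 and 18.9 in Sox5 KO. Its libraries did not overlap with WT in any knockout, and it rose by 1.33 (SE 0.18, adjusted p = 2.37e-06), 0.73 (SE 0.17, adjusted p = 0.00159) and 1.25 (SE 0.18, adjusted p = 2.81e-06). Incenp, the scaffold of the complex, stood at 34.6 and 34.6 CPM in WT, 58.1, 56.01 and 48.9 in Xap5 KO, 28.3, 33.5 and 22.04 in Nono KO and 38.9, 43.6 and 43.95 in Sox5 KO. It rose in Xap5 KO by 0.65 (SE 0.13, adjusted p = 0.000539), while all 3 Nono KO libraries lay below WT with a value of −0.31 (SE 0.13, adjusted p = 0.0585) that was not called. Cdca8, borealin, rose in Xap5 KO (0.85) and Nono KO (0.61). The Aurkb call in Nono KO ended in 6 of the 11 fits without 1 library (0.18 to 0.65 over the 11), with DESeq2 (0.40) and with the offset for length and GC content, at 0.34 (adjusted p = 0.0812), and in Sox5 KO without WT replicate 2 (0.44) and with that offset, at 0.37 (adjusted p = 0.0515). Without WT replicate 2, Birc5 (0.52) and Cdca8 (0.40) were not called in Nono KO.

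All 6 spindle and chromosome kinesins rose in Xap5 KO. In each of the other knockouts 2 of 6 rose (33.3%), against 23.5% of all tested genes in Nono KO and a near 30.6% in Sox5 KO. Kif4, a chromokinesin that also acts at the central spindle, stood at 13.4 and 11.6 CPM in WT, 42.6, 35.4 and 32.6 in Xap5 KO, 14.04, 13.7 and 10.1 in Nono KO and 16.9, 17.1 and 17.7 in Sox5 KO. Xap5 KO lay far above all other libraries, at 1.56 (SE 0.14, adjusted p = 1.56e-08) against WT, whereas Nono KO overlapped with WT at 0.01 (SE 0.14, adjusted p = 0.95). In Sox5 KO it rose by 0.47 (SE 0.14, adjusted p = 0.0074). Kif11, the motor that pushes the spindle poles apart, stood at 25.7 and 20.6 CPM in WT, 39.9, 38.05 and 36.6 in Xap5 KO, 32.9, 35.9 and 22.7 in Nono KO and 23.6, 26.03 and 29.7 in Sox5 KO, and was called in Xap5 KO at 0.72 (SE 0.17, adjusted p = 0.00257). Kif2c, a microtubule depolymerase of the centromere, stood at 14.2 and 10.6 CPM in WT, 30.2, 30.3 and 28.00 in Xap5 KO, 23.5, 26.3 and 18.6 in Nono KO and 14.9, 13.8 and 16.7 in Sox5 KO. It rose in Xap5 KO by 1.25 (SE 0.15, adjusted p = 4.93e-07) and in Nono KO by 0.88 (SE 0.15, adjusted p = 3.54e-05), and overlapped with WT in Sox5 KO. Kif22, a chromokinesin, was called in Xap5 KO (0.90) and Sox5 KO (0.87), and its value in Nono KO was 0.01. Kif15 was called in Xap5 KO (0.61) and Nono KO (0.46), and Kif18a in Xap5 KO (0.55). In Xap5 KO the Kif15 call ended without either WT replicate (0.58 and 0.61), and the Kif18a call without either WT replicate, without Xap5 KO replicate 1 and without replicate 2 (0.46 to 0.65 over the 11 fits), with DESeq2 (0.54) and with the offset for length and GC content, at 0.48 (adjusted p = 0.0629). The Kif15 call in Nono KO ended in 8 of the 11 fits without 1 library (0.31 to 0.67 over the 11) and with that offset, at 0.40 (adjusted p = 0.0798). The Kif4 call in Sox5 KO ended without WT replicate 2 (0.36).

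Of the 6 spindle assembly factors, 6 rose in Xap5 KO and 5 in Nono KO, and in Sox5 KO 4 rose and 1 fell. Aurka, the kinase of the spindle poles, stood at 10.6 and 8.94 CPM in WT, 23.01, 22.5 and 24.8 in Xap5 KO, 15.2, 13.9 and 11.9 in Nono KO and 20.1, 15.96 and 16.4 in Sox5 KO. It rose by 1.26 (SE 0.14, adjusted p = 3.01e-07), 0.48 (SE 0.14, adjusted p = 0.00706) and 0.84 (SE 0.14, adjusted p = 2.8e-05). Tpx2, the activator of that kinase, stood at 42.6 and 39.2 CPM in WT, 67.3, 68.6 and 63.3 in Xap5 KO, 52.8, 56.5 and 38.7 in Nono KO and 52.7, 54.3 and 53.8 in Sox5 KO, with rises of 0.70 (SE 0.11, adjusted p = 6.09e-05) in Xap5 KO and 0.39 (SE 0.11, adjusted p = 0.00642) in Sox5 KO. Nono KO replicate 3 lay below both WT libraries and the other replicates above them. Hmmr, a microtubule-binding protein of the spindle, stood at 15.1 and 12.3 CPM in WT, 31.1, 38.5 and 30.9 in Xap5 KO, 31.3, 31.9 and 20.7 in Nono KO and 18.2, 22.7 and 21.2 in Sox5 KO. It rose by 1.30 (SE 0.18, adjusted p = 4.12e-05), 1.04 (SE 0.18, adjusted p = 0.000252) and 0.60 (SE 0.18, adjusted p = 0.0102). Nusap1 rose in Xap5 KO (0.91) and Nono KO (0.60), Dlgap5 in all 3 (0.68, 0.76 and 0.51), and Aspm, which focuses spindle poles, rose in Xap5 KO (0.74) and Nono KO (0.72) and fell in Sox5 KO (−0.41). Without WT replicate 2, Dlgap5 was not called in Xap5 KO (0.47) or Sox5 KO (0.31), nor Aurka in Nono KO (0.37), nor Tpx2 (0.33) and Hmmr (0.45) in Sox5 KO. The Nusap1 call in Nono KO ended without WT replicate 2, Nono KO replicate 1 or Nono KO replicate 2 (0.30 to 0.99 over the 11 fits) and with the offset for length and GC content, at 0.49 (adjusted p = 0.0639). Aspm in Sox5 KO was not called without WT replicate 1 (−0.31) and was called higher with that offset, at 0.26 (adjusted p = 0.0395).

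All 7 cytokinesis genes rose in Xap5 KO and in Nono KO, and 5 of 7 in Sox5 KO. Kif20a, the kinesin that brings the passenger complex to the central spindle, stood at 17.1 and 13.2 CPM in WT, 48.02, 43.8 and 39.2 in Xap5 KO, 32.4, 40.6 and 28.4 in Nono KO and 26.4, 30.9 and 31.3 in Sox5 KO. No knockout library overlapped with WT, and it rose by 1.53 (SE 0.15, adjusted p = 3.95e-07), 1.16 (SE 0.15, adjusted p = 7.1e-06) and 0.96 (SE 0.15, adjusted p = 3.21e-05). Anln, anillin of the contractile ring, stood at 49.2 and 43.7 CPM in WT, 82.9, 87.4 and 79.01 in Xap5 KO, 118, 128 and 90.2 in Nono KO and 53.9, 53.6 and 56.5 in Sox5 KO. It was highest in Nono KO, at 1.27 (SE 0.11, adjusted p = 9.93e-08) against WT, and 0.84 (SE 0.11, adjusted p = 1.24e-05) in Xap5 KO. Its value in Sox5 KO, 0.23 (SE 0.11, adjusted p = 0.0799), was not called. With the offset for length and GC content Anln was called higher in Sox5 KO, at 0.38 (adjusted p = 0.00682).

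Kif23, a centralspindlin motor, stood at 10.05 and 10.4 CPM in WT, 21.9, 23.2 and 22.4 in Xap5 KO, 22.3, 21.8 and 14.9 in Nono KO and 8.81, 11.01 and 11.2 in Sox5 KO. It rose by 1.14 (SE 0.16, adjusted p = 4.72e-06) in Xap5 KO and 0.95 (SE 0.16, adjusted p = 3.62e-05) in Nono KO, whereas Sox5 KO overlapped with WT. Prc1, which bundles the microtubules of the central spindle, stood at 37.1 and 30.7 CPM in WT, 53.5, 50.5 and 43.1 in Xap5 KO, 50.6, 49.8 and 34.6 in Nono KO and 42.7, 43.4 and 44.9 in Sox5 KO. Its rises were small, at 0.53 (SE 0.15, adjusted p = 0.00847), 0.41 (SE 0.15, adjusted p = 0.0316) and 0.37 (SE 0.15, adjusted p = 0.0432), and all 3 calls ended without WT replicate 2 (0.40, 0.29 and 0.23). Its call in Nono KO also ended without Nono KO replicate 1, without replicate 2 and with the offset for length and GC content, at 0.31 (adjusted p = 0.0984), and its call in Sox5 KO ended in 6 of the 11 fits without 1 library (0.23 to 0.50 over the 11). Ect2, the exchange factor that activates RhoA at the cleavage plane, rose in all 3 (1.20, 0.73 and 0.34), as did its partner Racgap1 (0.57, 0.46 and 0.36) and the kinesin Kif20b (1.26, 0.41 and 0.44). In Sox5 KO the Ect2 call ended without WT replicate 2 (0.17), Sox5 KO replicate 1 (0.27) or Sox5 KO replicate 3 (0.33), and the Racgap1 call without WT replicate 2 (0.30). In Nono KO the Kif20b call ended without WT replicate 1 (0.38).

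Among the 4 genes of anaphase and mitotic exit, the activator and the E2 enzyme of the anaphase-promoting complex rose in all 3 knockouts. Cdc20, the activator, stood at 16.6 and 16.4 CPM in WT, 38.5, 36.3 and 38.97 in Xap5 KO, 40.9, 45.7 and 35.1 in Nono KO and 25.2, 24.4 and 24.5 in Sox5 KO. Its 2 WT libraries were close together, every knockout library lay above them, and the rises were 1.20 (SE 0.10, adjusted p = 6.84e-09), 1.30 (SE 0.10, adjusted p = 1.45e-09) and 0.58 (SE 0.10, adjusted p = 5.65e-05). Ube2c, the E2 enzyme, stood at 11.5 and 7.72 CPM in WT, 28.2, 26.5 and 27.2 in Xap5 KO, 23.8, 23.8 and 14.1 in Nono KO and 22.9, 24.8 and 23.95 in Sox5 KO, with rises of 1.51 (SE 0.22, adjusted p = 9.66e-05), 1.10 (SE 0.22, adjusted p = 0.000953) and 1.32 (SE 0.22, adjusted p = 0.000168). The CHR letters of both promoters are in the lines printed above. The window of Espl1, described next, also holds CHR letters, at −27, and that of Pttg1 holds 0. A link between the letters and the change was not tested. The enzyme and the inhibitor of sister separation did not rise in all 3 knockouts. Espl1, separase, stood at 19.3 and 14.5 CPM in WT, 24.6, 22.8 and 22.7 in Xap5 KO, 20.5, 25.1 and 11.4 in Nono KO and 14.3, 16.9 and 15.6 in Sox5 KO, and was not called in any knockout. Pttg1, securin, stood at 9.03 and 9.83 CPM in WT, 10.5, 12.5 and 11.6 in Xap5 KO, 8.54, 7.38 and 5.55 in Nono KO and 15.8, 13.05 and 11.6 in Sox5 KO. It rose in Sox5 KO by 0.52 (SE 0.18, adjusted p = 0.0165), and in Nono KO it had the lowest value of the 56 genes, −0.40 (SE 0.18, adjusted p = 0.0715), with all libraries below WT and no call. Both Pttg1 results changed with the offset for length and GC content, which gave 0.12 (adjusted p = 0.56), not called, in Sox5 KO and −0.58 (adjusted p = 0.00765), a lower call, in Nono KO. The Sox5 KO call also ended without WT replicate 1 (0.45) and without Sox5 KO replicate 1 (0.39), and without Nono KO replicate 1 Pttg1 was called lower in Nono KO (−0.54). Library totals also gave a lower call there.

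Of the 7 chromosome structure genes, 6 rose in Xap5 KO. In Nono KO 2 rose (28.6%, near the 23.5% of all tested genes). In Sox5 KO 1 rose and 3 fell (14.3% and 42.9%, against 30.6% and 30.3% of all tested genes). Top2a stood at 104 and 82.2 CPM in WT, 203, 224 and 200.5 in Xap5 KO, 169, 159 and 124 in Nono KO and 96.1, 105 and 108 in Sox5 KO. It rose by 1.17 (SE 0.14, adjusted p = 5.6e-05) in Xap5 KO and 0.70 (SE 0.14, adjusted p = 0.00174) in Nono KO, and Sox5 KO lay within or just above the WT range at 0.15 (SE 0.14, adjusted p = 0.386). Mki67, the Ki-67 protein that coats mitotic chromosomes, stood at 71.8 and 62.05 CPM in WT, 167, 143 and 128 in Xap5 KO, 88.9, 108 and 70.6 in Nono KO and 41.1, 45.7 and 50.3 in Sox5 KO. Its values were 1.13 (SE 0.19, adjusted p = 0.00148) in Xap5 KO, 0.42 (SE 0.19, adjusted p = 0.105) in Nono KO, where it was not called, and −0.55 (SE 0.19, adjusted p = 0.0332) in Sox5 KO. The Mki67 call in Sox5 KO ended without WT replicate 1, WT replicate 2, Sox5 KO replicate 1 or Sox5 KO replicate 2 (−0.66 to −0.45 over the 11 fits), with the replicate block (−0.48), and with the offset for length and GC content, which turned it to 0.12 (adjusted p = 0.618). With that offset Top2a was called higher in Sox5 KO, at 0.41 (adjusted p = 0.0272).

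The condensins compact chromosomes. Smc4 stood at 75.4 and 79.3 CPM in WT, 142, 146 and 129.8 in Xap5 KO, 108, 124 and 104 in Nono KO and 73.01, 69.03 and 83.7 in Sox5 KO, with rises of 0.85 (SE 0.09, adjusted p = 9.4e-08) in Xap5 KO and 0.54 (SE 0.09, adjusted p = 2.75e-05) in Nono KO. Smc2, its partner, stood at 36.99 and 35.3 CPM in WT, 64.5, 68.8 and 63.5 in Xap5 KO, 38.2, 40.1 and 26.3 in Nono KO and 23.6, 21.8 and 27.6 in Sox5 KO. It rose in Xap5 KO by 0.86 (SE 0.15, adjusted p = 0.000193), fell in Sox5 KO by 0.57 (SE 0.14, adjusted p = 0.00314), and straddled WT in Nono KO. Ncapd2 stood at 45.7 and 38.5 CPM in WT, 48.5, 49.7 and 44.05 in Xap5 KO, 44.05, 50.2 and 38.2 in Nono KO and 31.7, 33.04 and 34.2 in Sox5 KO, and was called in Sox5 KO at −0.35 (SE 0.11, adjusted p = 0.00642). Ncaph rose in Xap5 KO (0.91) and Sox5 KO (0.50), and Ncapg in Xap5 KO (0.84). With the offset for length and GC content the lower calls in Sox5 KO ended, with Smc2 at −0.26 (adjusted p = 0.1) and Ncapd2 at −0.17 (adjusted p = 0.167), and Ncapd2 was called higher in Xap5 KO, at 0.27 (adjusted p = 0.036). The Ncapd2 call in Sox5 KO also ended without WT replicate 1 (−0.23).

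Of the 4 transcription factors and associated kinases, 3 rose in Xap5 KO, 0 in Nono KO, where 1 gene was higher at an unadjusted p under 0.05 and DESeq2 called 0, and 2 in Sox5 KO. Mybl2, B-MYB, stood at 6.77 and 5.83 CPM in WT, 20.2, 21.3 and 18.98 in Xap5 KO, 8.69, 8.52 and 5.39 in Nono KO and 8.29, 8.47 and 10.3 in Sox5 KO. The Xap5 KO libraries lay well above the other 8, with a rise of 1.68 (SE 0.19, adjusted p = 2.72e-07), and in Nono KO the value was 0.26 (SE 0.18, adjusted p = 0.262) with replicate 3 below both WT libraries. In Sox5 KO it rose by 0.52 (SE 0.19, adjusted p = 0.0201). Foxm1 stood at 33.5 and 30.6 CPM in WT, 62.6, 58.95 and 57.8 in Xap5 KO, 35.95, 40.6 and 30.2 in Nono KO and 29.3, 32.4 and 30.6 in Sox5 KO. It rose by 0.90 (SE 0.10, adjusted p = 4.28e-07) in Xap5 KO and overlapped with WT in the other knockouts, at 0.15 (SE 0.10, adjusted p = 0.239) and −0.06 (SE 0.10, adjusted p = 0.636). The kinase Melk was called in Xap5 KO (1.15), and the kinase Pbk in Sox5 KO (0.46). The count of 0 in Nono KO rests on Nono KO replicate 3. Without that library Foxm1 (0.26), Mybl2 (0.45) and Melk (0.69) were called higher there, and with the offset for length and GC content Foxm1 was, at 0.25 (adjusted p = 0.049). In Sox5 KO the Mybl2 call ended without WT replicate 2 (0.41) and without Sox5 KO replicate 3 (0.41), and the Pbk call without WT replicate 2 (0.26) and with the offset, at 0.10 (adjusted p = 0.613).

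**Figure D3:**
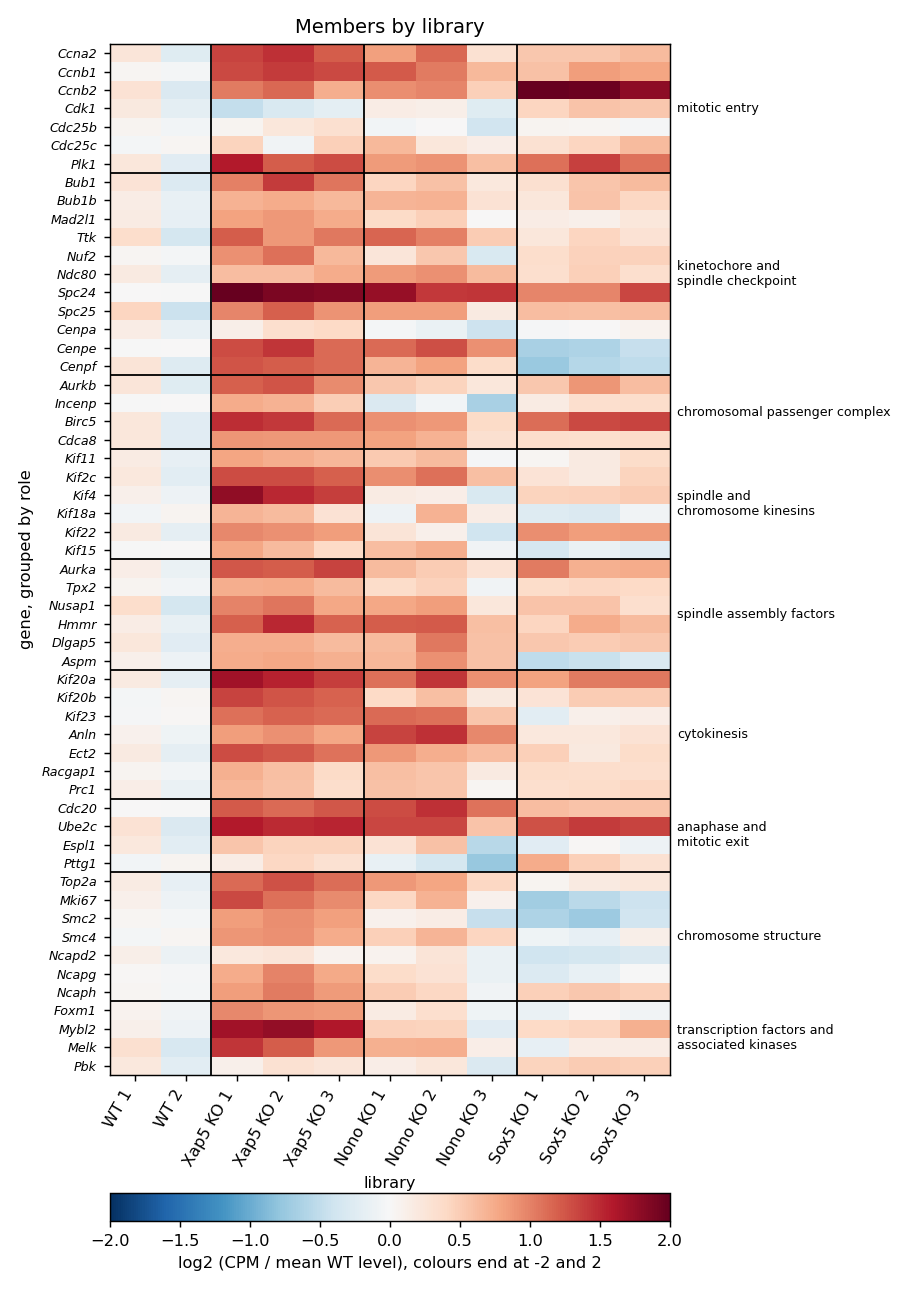
Log2 ratio of each gene's CPM to its mean WT level in each of the 11 libraries, with genes in rows grouped by role. The columns of Xap5 KO are red for nearly all genes, with Cdk1 in blue, the third Nono KO column is paler than the other Nono KO columns, and Cenpe, Cenpf, Aspm, Mki67 and Smc2 are blue in Sox5 KO.

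**Figure D4:**
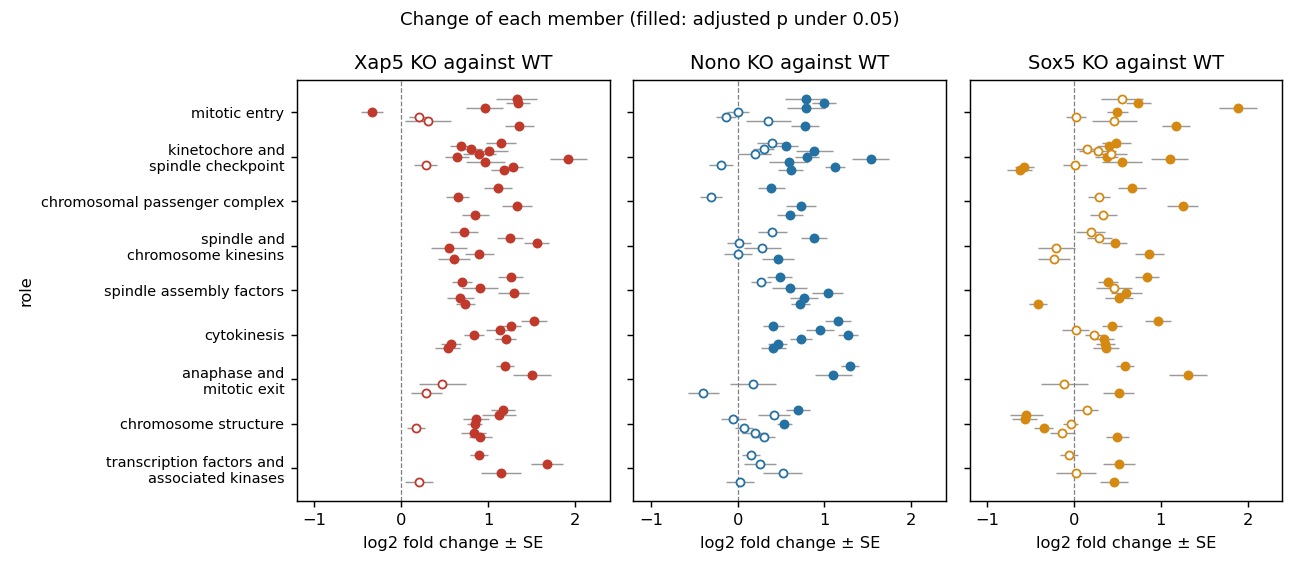
Log2 fold change of each gene against WT with its SE, grouped by role, with filled points for genes called at an adjusted p under 0.05. In Xap5 KO every kinesin, spindle assembly and cytokinesis gene is filled and above 0, in Nono KO no transcription factor or associated kinase is filled, and in Sox5 KO filled points lie on both sides of 0.

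The spread between replicates was larger for these genes than for others in WT and Nono KO. The median coefficient of variation of the 56 genes was 13.9% among WT libraries, 7.67% among those of Xap5 KO, 18.05% among those of Nono KO and 7.78% among those of Sox5 KO. Over all tested genes it was 5.36%, 8.32%, 8.00% and 7.09% in the same order. Nono KO replicate 3 was the lowest of its group for 54 of the 56 genes, all but Spc24 and Kif18a, where that library was the lowest for 33.2% of all tested genes. Its level was a median 73.6% of the mean of its other replicates. It was also the lowest for 42 of 45 DNA replication and S phase genes and for 58 of 73 other mitotic genes. Without it, 44 of the 56 genes were called higher in Nono KO (78.6%, against 22.9% of all tested genes) and not 32 (57.1%, against 23.5%).

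The WT libraries differed too. WT replicate 2 lay below WT replicate 1 for 47 of the 56 genes, where this held for 49.2% of all tested genes, and its level was a median 82.1% of that of replicate 1. With WT replicate 1 as the only WT library, the genes called higher numbered 44, 21 and 13, with Xap5 KO first, Nono KO next and Sox5 KO last. With WT replicate 2 as the only WT library, the counts were 46, 34 and 32, and 3 genes and not 6 were called lower in Sox5 KO. A lone library is then assumed to vary like the libraries of the other groups. For Nono KO and Sox5 KO, the shares of all tested genes without WT replicate 2 are given above. In Sox5 KO the share of the 56 was then no higher than that of all genes. Xap5 KO replicate 3 was the lowest of its group for 38 of the 56 genes (34.5% of all tested genes) and Sox5 KO replicate 1 for 35 (34.4%).

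The higher calls in Xap5 KO were the least dependent on single libraries. Of these 48 higher calls, 44 held with each of the 11 libraries left out in turn, and those that did not were Kif18a, Kif15, Dlgap5 and Prc1. In Nono KO 20 of 32 held. In Sox5 KO 12 of 28 held, namely Ccnb1, Ccnb2, Plk1, Spc24, Birc5, Kif22, Aurka, Kif20a, Kif20b, Cdc20, Ube2c and Ncaph. Of its 6 lower calls, 3 held, namely Cenpe, Cenpf and Smc2.

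In Sox5 KO the direction went with transcript length. The log2 fold changes of the 56 genes had a Pearson correlation of −0.73 and a Spearman correlation of −0.70 with the log2 length of the longest transcript in the GENCODE annotation of GRCm38, where all 13293 tested genes with a length gave −0.22 and −0.37. These are correlations across genes that share the same libraries, not across samples. Of the 28 shorter genes (up to 3.67 kb), 18 rose and 0 fell with a median of 0.51, and of the 28 longer ones 10 rose and 6 fell with a median of 0.15. The corresponding Pearson values were −0.12 in Xap5 KO and −0.13 in Nono KO.

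When a per-gene offset for length and GC content was added to the fit, 29 of the 56 genes were called higher in Sox5 KO and 0 lower, against 28 and 6 without it. The 29 are 51.8% of the 56, where 31% of all tested genes were called higher with the offset and 25.5% lower. At an unadjusted p under 0.05, 0 were then lower. Cenpf was at 0.11, Mki67 at 0.12 and Aspm at 0.26 with a call higher (adjusted p = 0.0395), so their direction turned. Cenpe was at −0.01, Smc2 at −0.26 and Ncapd2 at −0.17, none called. The higher genes were not all the same ones. Aurkb, Pbk, Pttg1 and Spc25 lost their call, with Pbk from 0.46 to 0.10, Pttg1 from 0.52 to 0.12, Spc25 from 0.55 to 0.24 and Aurkb from 0.67 to 0.37. Mad2l1, Top2a, Anln and Nuf2 gained one, with Mad2l1 from 0.15 to 0.69, Top2a from 0.15 to 0.41, Anln from 0.23 to 0.38 and Nuf2 from 0.42 to 0.47. The longest annotated transcript, 7.56 kb for Mad2l1, may not be the form made in these cells. This limits the offset, the correlations with length and the levels per kilobase. The largest rises stayed called, with Ccnb2 at 1.44, Birc5 at 1.20, Ube2c at 1.13 and Plk1 at 1.00. The 6 lower calls in Sox5 KO therefore hold only without this offset. With it, the number of higher calls was 48 in Xap5 KO (85.7%, against 24.7% of all tested genes) and 28 in Nono KO (50%, against 22.7%).

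**Figure D5:**
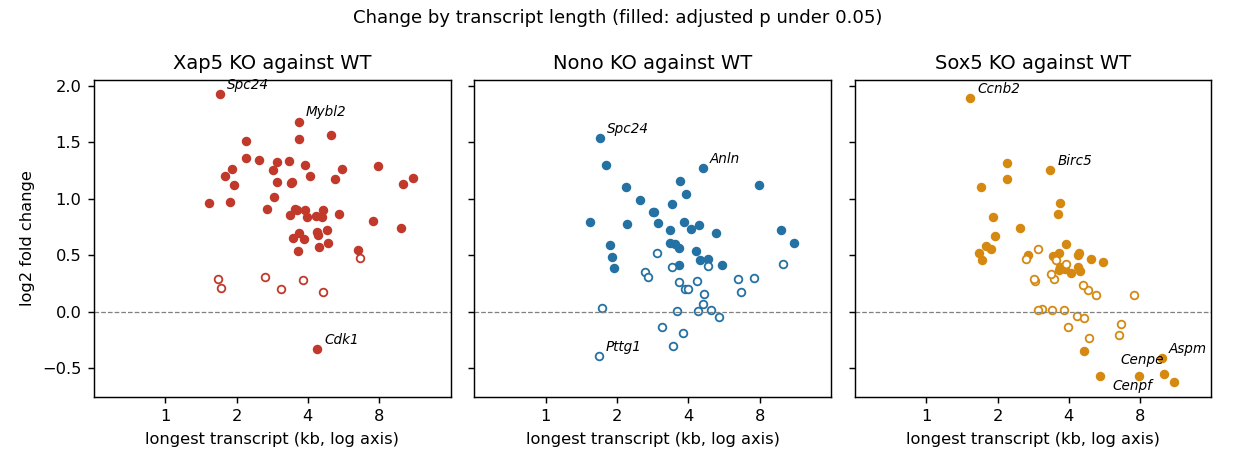
Log2 fold change of each of the 56 genes against WT plotted over the length of its longest transcript in kb (log axis), with filled points for genes called at an adjusted p under 0.05. In Sox5 KO the points descend from Ccnb2 at 1.5 kb to Cenpf at 11.1 kb (Pearson −0.73 on log2 length), while the other panels show no such slope (−0.12 and −0.13).

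Against each other, the knockouts differed in which mitotic genes were high. In Xap5 KO against Nono KO, 29 of the 56 genes were higher and 2 lower, where 27.1% of all tested genes were called higher and 25.9% lower. Kif4 differed by 1.55 (SE 0.13, adjusted p = 1.39e-09), Mybl2 by 1.42 (SE 0.16, adjusted p = 2.23e-07), Incenp by 0.96 (SE 0.12, adjusted p = 2.01e-06) and Foxm1 by 0.75 (SE 0.09, adjusted p = 6.1e-07). The 2 lower genes were Cdk1 at −0.34 (SE 0.11, adjusted p = 0.0152) and Anln at −0.43 (SE 0.10, adjusted p = 0.00133). The Cdk1 call ended without Xap5 KO replicate 1 (−0.29), Nono KO replicate 1 (−0.27) or Nono KO replicate 2 (−0.29). Cdc20 did not pass the test at −0.10 (SE 0.09, adjusted p = 0.375), nor did Aspm at 0.01 (SE 0.09, adjusted p = 0.913).

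In Xap5 KO against Sox5 KO, 39 were higher and 2 lower, where 31.1% of all genes were called higher and 30.4% lower. The widest differences were Cenpe at 1.86 (SE 0.10, adjusted p = 2.25e-12), Cenpf at 1.80 (SE 0.13, adjusted p = 1.97e-08) and Mki67 at 1.68 (SE 0.17, adjusted p = 3.37e-05). The lower genes were both of mitotic entry, Ccnb2 at −0.93 (SE 0.18, adjusted p = 0.000157) and Cdk1 at −0.83 (SE 0.11, adjusted p = 2.23e-06). In Nono KO against Sox5 KO, 21 were higher and 10 lower, where 30.9% of all genes were called higher and 32.6% lower. Cenpe at 1.69 (SE 0.10, adjusted p = 7.77e-12), Cenpf at 1.24 (SE 0.13, adjusted p = 1.12e-06), Aspm at 1.14 (SE 0.10, adjusted p = 1.64e-09) and Anln at 1.03 (SE 0.10, adjusted p = 1.03e-07) led the higher genes. The lower genes were Ccnb2, Pttg1, Kif22, Incenp, Birc5, Cdk1, Kif4, Pbk, Plk1 and Aurka, from −1.10 (SE 0.18, adjusted p = 2.32e-05) for Ccnb2 to −0.36 (SE 0.12, adjusted p = 0.016) for Aurka. In both comparisons with Sox5 KO the difference went with length, at a Pearson correlation of 0.58 against Xap5 KO and 0.56 against Nono KO. With the offset for length and GC content these were 0.20 and 0.18, and 38 and 16 genes were called higher and 2 and 9 lower. Of all tested genes, 1578 of 6646 shorter and 2114 of 6647 longer ones were then higher in Xap5 KO against Sox5 KO. Those lower were 1999 and 2127. In Nono KO against Sox5 KO, 1613 and 1961 were higher, and 2163 and 2393 lower. The 16 members, 6 of the 28 shorter and 10 of the 28 longer, are near these shares and not read as a trait of the 56. Against Xap5 KO the values with the offset were 1.31 for Cenpe, 1.10 for Cenpf, 1.10 for Mki67 and −0.62 for Ccnb2, each still called. Against Nono KO they were 1.10 for Cenpe, 0.48 for Cenpf, 0.45 for Aspm and 0.84 for Anln, also called, while the lower calls of Aurka, Pbk and Plk1 ended. Those 3 calls also ended without Nono KO replicate 3 (−0.27, −0.29 and −0.31), the Aurka call without Sox5 KO replicate 1 (−0.24) and the Plk1 call without Sox5 KO replicate 2 (−0.30).

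Differences of 2-fold or more between knockouts were most frequent in Xap5 KO against Sox5 KO. Xap5 KO against Nono KO had 2 such genes higher (5.24% of all tested genes) and 0 lower (5.81%). Against Sox5 KO, Xap5 KO had 10 higher, or 17.9% of the 56 (7.91% of all tested genes), and 0 lower (7.06%), and Nono KO had 4 higher (9.62%) and 1 lower (7.4%), Ccnb2.

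Genes with and without the promoter letters both rose in Xap5 KO. Of the 34 matched genes with CHR letters 29 rose and 1 fell, and of the 11 without 10 rose and 0 fell. In Nono KO 22 of 34 with and 4 of 11 without rose, and in Sox5 KO 17 of 34 with and 5 of 11 without rose. The difference between genes with and without the letters was not tested.

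Counts for other gene groups of the cell cycle stand against the shares of all tested genes given above, 23.2% higher and 22.3% lower in Xap5 KO, 23.5% and 25.1% in Nono KO, and 30.6% and 30.3% in Sox5 KO. Of 73 other mitotic genes, 50 rose and 3 fell in Xap5 KO, 26 rose and 5 fell in Nono KO, and 30 rose and 10 fell in Sox5 KO, with medians of 0.58, 0.26 and 0.34. Cep55, a protein of the abscission site, stood at 6.38 and 4.92 CPM in WT, 17.9, 16.5 and 14.1 in Xap5 KO, 9.18, 9.38 and 5.44 in Nono KO and 10.8, 15.2 and 13.7 in Sox5 KO, and was called in Xap5 KO and Sox5 KO. Of 45 DNA replication and S phase genes, 27 rose and 1 fell in Xap5 KO (median 0.55). In Nono KO 5 rose and 12 fell (median −0.15), and the falls, at 26.7%, are near the share of all genes. In Sox5 KO 14 rose, which at 31.1% is near the share of all genes, and 8 fell (median 0.12). Cdc6, which loads the replicative helicase, stood at 8.01 and 7.22 CPM in WT, 20.4, 22.5 and 21.02 in Xap5 KO, 7.25, 12.7 and 5.55 in Nono KO and 10.5, 9.05 and 12.03 in Sox5 KO, and was called in Xap5 KO alone among the 3 comparisons with WT. Tk1, thymidine kinase, stood at 8.73 and 8.67 CPM in WT, 20.7, 25.02 and 23.6 in Xap5 KO, 15.3, 15.8 and 8.56 in Nono KO and 21.4, 22.9 and 23.8 in Sox5 KO, and was called higher in all 3. In Xap5 KO against Nono KO, 37 of the 45 S phase genes were higher and 0 lower, where 27.1% of all tested genes were higher and 25.9% lower. At an unadjusted p under 0.05, or by DESeq2, 0 were lower. Nono KO replicate 3 was the lowest of its group for 42 of these 45 genes.

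The lists of regulators are short, and nothing particular to them is read from their counts. Of 20 DREAM, E2F and NF-Y genes, 5 rose and 5 fell in Xap5 KO (25% each way), 2 and 7 in Nono KO, and 3 and 6 in Sox5 KO. E2f6, a repressor of the E2F family, stood at 4.44 and 4.58 CPM in WT and 3.43, 3.46 and 1.27 in Nono KO, with 0, 0.05 and 0 CPM in Xap5 KO and 0 in every Sox5 KO library. How its transcripts were counted was not examined, so these values may not be the level of the whole gene. Of 10 tested genes for D cyclins, their kinases and CDK inhibitors, 3 rose and 4 fell in Xap5 KO, 5 and 3 in Nono KO, and 3 and 4 in Sox5 KO. Ccnd2, cyclin D2, stood at 206 and 211 CPM in WT, 159.9, 161 and 156 in Xap5 KO, 405, 409 and 429.7 in Nono KO and 102, 115 and 115 in Sox5 KO, above WT in Nono KO and below it in the others, with each called. Of 15 core subunits of the anaphase-promoting complex, 5 rose and 1 fell in Xap5 KO, 4 and 1 in Nono KO, and 7 and 5 in Sox5 KO. Of 12 cohesin genes, which hold sister chromatids together, 4 rose and 2 fell in Xap5 KO, 1 and 5 in Nono KO, and 1 and 7 in Sox5 KO.

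Exons of 17 of the 56 genes overlap another gene in the annotation, and their counts are uncertain where the counting could mix the genes. For Foxm1, Ncapd2 and Top2a the other gene lies on the same strand, and for Ccna2, Cdc20, Cdc25b, Cdc25c, Cdca8, Kif18a, Kif20a, Kif22, Kif4, Ncapg, Nusap1, Plk1, Prc1 and Ube2c on the opposite strand. The handling of strand is not given in the sources used here.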

How the data were processed

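RNA-seq libraries were made from total RNA of 11 samples in 4 groups. The authors deposited 1 table of gene counts, treated here as estimated counts in whole numbers. The value 2 occurs 3302 times and the value 1 occurs 857 times, and whether both mates of a read pair were counted is not known, so a count may stand for less than 1 sequenced fragment. Per the submitters' processing notes, the tools were HISAT2 2.1.0, StringTie 1.3.3b and DESeq2 1.12.4 and the builds GRCm39 and mm39. Strand handling and annotation are not given in the sources used here.

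From the deposited counts, edgeR 4.0.16 fitted all 11 libraries with 1 mean per group, TMM factors and its filter on low counts (minimum count 10, minimum total 15), which kept 13332 genes. The quasi-likelihood test with Benjamini-Hochberg adjustment over all of them made the calls (adjusted p under 0.05). CPM are on TMM-scaled totals. Depth was 30205878 to 43498383 counts and the common biological coefficient of variation 10.6%. Counting error alone is also 10.6% at the lowest count of a member, 89, if each count is 1 fragment, and larger if it is less. DESeq2 1.42.0 was an alternative, among other scalings, filters, designs, a length and GC offset and leaving out each library. The fit was tested on simulated counts. Gene lengths came from GENCODE M21 on GRCm38, which matched 21540 of 21684 IDs, and promoters from RefSeq.

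The 56 members and all gene lists were chosen with earlier results of these data known. All members are named by role. Those picked by role beforehand and the 3 highest and 3 lowest in each knockout against WT have every library's value, and up to 3 genes of each other list, those with the largest called change, could be named. The replicate numbers were not used to pair the libraries. Deviations of same-numbered libraries of different groups correlated at −0.02 to 0.05 in 15 pairs. Those of differently numbered libraries correlated at −0.05 to 0.02 in 30 pairs.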

Additional observations from a re-analysis of the deposited data

How the results depend on the processing

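With the exceptions given here, the counts of the 56 genes called in each direction stayed within 1.5 times the reported count under DESeq2's size factors, DESeq2, library totals, no filter, at least 10 counts in every library, fits of the 2 groups compared, the replicate block and the length and GC offset, and the cause of each exception was not tested. In Xap5 KO against WT, the lower call of Cdk1 was lost with the replicate block and with the offset (0 lower). In Nono KO, 4 genes were lower with library totals (37.4% of all tested genes) and 1 with the offset (25.5% of all). In Sox5 KO, library totals gave 18 higher (25.1% of all tested genes) and a median of 0.27. The offset gave 0 lower there (25.5% of all), with Cenpf at 0.11, Aspm at 0.26 and Mki67 at 0.12. In Xap5 KO against Nono KO, library totals gave 1 lower. Requiring also a 2-fold change left 24 higher and 0 lower in Xap5 KO, 7 higher in Nono KO and 5 higher and 0 lower in Sox5 KO against WT, 2 and 0 in Xap5 KO against Nono KO, 10 and 0 in Xap5 KO against Sox5 KO, and 4 and 1 in Nono KO against Sox5 KO.

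With each library left out in turn, the genes called higher against WT ran from 44 to 49 in Xap5 KO, from 21 to 44 in Nono KO and from 13 to 34 in Sox5 KO. Those called lower ran from 0 to 1, 0 to 1 and 3 to 6, and the medians from 0.81 to 1.09, 0.37 to 0.64 and 0.23 to 0.50. In Xap5 KO against Nono KO, those lower ran from 1 to 2. The lowest higher counts in Nono KO and Sox5 KO came without WT replicate 2. In Nono KO against Sox5 KO, higher genes ran from 16 to 31.

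The replicate numbers did not pair the libraries. A replicate block gave 48 higher and 0 lower in Xap5 KO, 36 and 0 in Nono KO and 33 and 5 in Sox5 KO, with a median of 0.44 in Sox5 KO.

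The lowest count of a member in a library was 89, where counting error alone is 10.6%, as large as the common biological coefficient of variation, so depth limits the lowest members, such as Spc24 and Cdc25c. The 2 WT libraries limit every comparison with WT.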
